A study of Mus musculus with 24 samples.

Results

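The 42 genes described here encode the contractile apparatus of striated muscle and the proteins that couple its electrical excitation to calcium release. They were taken as a list of mouse gene symbols by their role, drawn up with earlier results of these data known, and all 42 were found by Ensembl identifier among the 56065 genes of the deposited table. By role, 11 belonged to the thick filament (Myh1, Myh2, Myh4, Myh7, Myh13, Myl1, Mylpf, Myl2, Myl3, Mybpc1 and Mybpc2), 11 to the thin filament (Acta1, Tnnt1, Tnnt3, Tnni1, Tnni2, Tnnc1, Tnnc2, Tpm1, Tpm2, Tpm3 and Neb), 7 to the Z-disc (Actn2, Actn3, Ldb3, Tcap, Myoz1, Myoz2 and Des), 4 to titin and the M-band (Ttn, Myom1, Myom2 and Myom3), 7 to calcium handling (Cacna1s, Ryr1, Trdn, Casq1, Casq2, Atp2a1 and Pvalb) and 2 to energy and oxygen supply (Ckm and Mb).

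They were measured by RNA sequencing of 24 mouse choroid libraries, and values are DESeq2 normalized counts, which are estimated read counts divided by a size factor for each library. The study compared mice that lack Ceacam1, a cell adhesion receptor of endothelial and myeloid cells, with wild type littermates, and part of the mice had received laser spots to each eye, a standard injury for inducing new choroidal vessels. Without laser there were 4 wild type and 4 Ceacam1-/- libraries, and with laser 9 wild type and 7 Ceacam1-/- libraries. The Ceacam1-/- mice carry a germline deletion of the first exons of the gene and were bred on a C57BL/6J background, so all groups share that background. Age, sex and the interval between laser and dissection are not in the sample labels, and the labels do not say whether each library is 1 animal, so p-values measure the spread between libraries. Libraries are named below by the number in their title (wild type without laser 21, 22, 26 and 27, Ceacam1-/- without laser 23, 24, 25 and 28). The normalized total of a library ranged from 23704346 to 35094410, and raw depth is unknown.

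Striated muscle fibres shorten when myosin of the thick filament pulls on actin of the thin filament, a step that calcium permits by moving tropomyosin through the troponin complex. Calcium is released from the sarcoplasmic reticulum by the ryanodine receptor when the voltage sensor in the membrane is activated, and is pumped back by a calcium ATPase. Fast and slow fibres use different genes for myosin, troponin and the pump. In the eye, such fibres belong to the extraocular muscles, which insert on the sclera, whereas the iris, ciliary body and vessel walls hold smooth muscle or, in the rodent iris dilator, muscle cells of neuroectodermal origin. In the study's cell sorting experiments the word choroid stood for pigment epithelium, choroid and sclera together. The libraries carried the tissue's own markers, with Ttr of the pigment epithelium at 15913 to 485527 normalized counts and Dct of melanocytes at 5437 to 70733.

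Ceacam1 itself was lower in the libraries labelled Ceacam1-/-, but the groups overlapped. It stood at 958, 5027, 1242 and 4596 normalized counts in wild type and at 405, 505, 508 and 1171 in Ceacam1-/- libraries without laser. With laser it ranged from 774 to 8367 in wild type and from 67.8 to 905 in Ceacam1-/- libraries. Counts are summed over the whole gene, so transcript outside the deleted part can contribute and the level does not test the genotype label.

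Together the 42 genes took up a sizeable part of most libraries without laser. Their share of all normalized counts was 3.46%, 5.92%, 3.29% and 5.80% in wild type libraries 21, 22, 26 and 27, and 0.621%, 6.46%, 7.67% and 4.31% in Ceacam1-/- libraries 23, 24, 25 and 28. With laser the share was 0.919% to 3.26% (median 2.72%) in wild type and 0.195% to 2.19% (median 1.04%) in Ceacam1-/- libraries. All 9 wild type laser libraries thus lay below all 4 wild type libraries without laser, while in Ceacam1-/- mice library 23 fell within the range of the laser libraries. Because these are bulk samples, fewer muscle fibres and less RNA per fibre cannot be told apart.

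**Figure D1:**
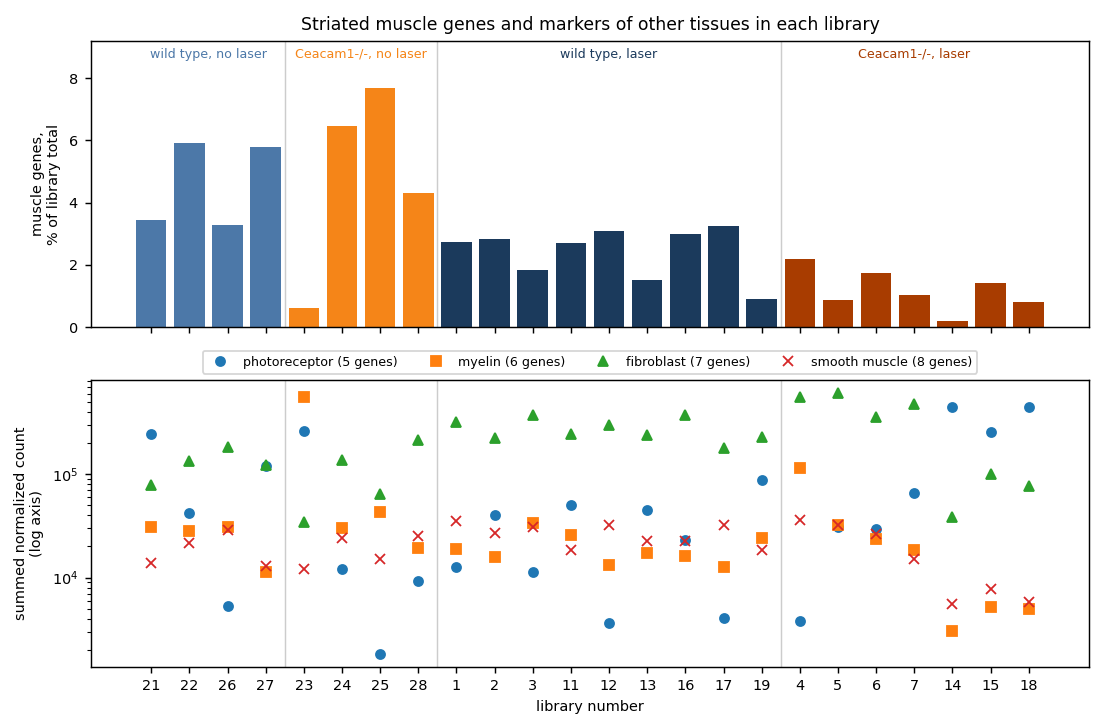
Upper panel, share of the 42 striated muscle genes in each library's normalized total (%, one bar per library, coloured by group); lower panel, summed normalized counts (log axis) of marker lists for photoreceptors, myelin, fibroblasts and smooth muscle in the same libraries. Library 23 had a muscle share of 0.621% beside the highest myelin sum, and the Ceacam1-/- laser libraries 14, 15 and 18 carried photoreceptor sums of 254703 normalized counts or more.

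Several libraries stood apart in their content of other tissues. Ceacam1-/- library 23 had a summed count of 553917 over 6 myelin and Schwann cell genes (Mbp the most abundant), against 11343 to 42640 in the other 7 libraries without laser, and a summed photoreceptor count of 262346 over 5 genes (Gnat1 the most abundant of these). Wild type library 21, with a muscle share of 3.46%, had a similar photoreceptor sum of 242716. The Ceacam1-/- laser libraries 14, 15 and 18 had photoreceptor sums of 451140, 254703 and 442020, against 3810 to 65076 in the other 4 libraries of the group and 3603 to 87335 in the wild type laser group. Their sums over 6 pigment epithelium genes were 52235, 39630 and 30852, against 116684 to 200007 in those other 4. Library 14 had the lowest mean log2 level of the 42 genes of all 24 libraries and library 23 the second lowest. Keratin genes of the surface epithelium were also uneven, with sums of 299237 in library 22, 82502 in library 27, 488661 in library 28, 188418 in library 19 and 433008 in library 15, against at most 15170 in the other 19 libraries.

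Markers of myeloid cells and fibroblasts had mostly positive log2 fold changes with laser, and the 42 genes mostly negative ones. By the limma test described below, 5 of 6 myeloid genes rose in wild type (median log2 fold change 2.00) and 4 of 6 in Ceacam1-/- mice (median 1.41), beside 4.23% and 2.07% of all genes. The myeloid sums (Lyz2 the most abundant) were 8984 to 18806 in wild type and 8594 to 11546 in Ceacam1-/- libraries without laser. With laser they were 40374 to 112591 and 13551 to 77775, above all libraries without laser of the same genotype. Of 7 fibroblast genes (Col1a1 the most abundant), 1 rose in each genotype, and the log2 fold change was positive for 7 in wild type (median 0.98) and for 6 in Ceacam1-/- mice (median 1.03). Their sums were 79067 to 181703 in wild type and 34651 to 212667 in Ceacam1-/- libraries without laser, and 179242 to 375473 in wild type with laser. The Ceacam1-/- laser libraries were split, with fibroblast sums of 38844, 101021 and 76069 in libraries 14, 15 and 18 and 358559 to 608927 in the other 4. Myeloid sums stood at 13551 to 22465 in those 3 libraries and 52458 to 77775 in the other 4. The surface epithelium, adipocyte, photoreceptor and pigment epithelium lists had no gene past the test with laser in either genotype. Surface epithelium genes were negative for 6 of 6 in both genotypes (medians -0.81 in wild type and -3.11 in Ceacam1-/-), and adipocyte genes for 4 of 4 in both (medians -0.69 and -0.98). Photoreceptor genes were negative for 5 of 5 in wild type (median -1.44) and positive for 5 of 5 in Ceacam1-/- mice (median 2.19). Pigment epithelium genes were negative for 3 of 6 in wild type (median -0.05) and for 6 of 6 in Ceacam1-/- mice (median -1.64). The part that dissection or tissue make-up had in the muscle values was not tested.

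Smooth muscle genes, the nearest other contractile programme, were given by a list of 8. Over these genes (Acta2 the most abundant, at 3183 to 22743 normalized counts) the sums were 13057 to 29099 in wild type without laser, 12162 to 25105 in Ceacam1-/- without laser, 18529 to 35275 in wild type with laser and 5580 to 35833 in Ceacam1-/- with laser. None of the 8 passed the limma test described below between laser and no laser in either genotype, with median log2 fold changes of -0.09 and -0.69. The difference between the lists was not tested.

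Promoter windows at the canonical start of the myosin genes and of Acta1 are shown. The heavy chain defines the fibre type, and Acta1 is the main actin of the thin filament. The windows are the 250 bases before the start of the canonical transcript, on build GRCm39, each written 5′ to 3′ on its own strand. The annotated gene begins upstream of the whole window for Myh1 (67089132), Myh4 (67128336) and, on the minus strand, Acta1 (124623661). Other starts may thus be used, and these windows need not hold a gene's main promoter. Capitals mark matches, on either strand, to the letters TATAAA, to CAGCTG (a form of the E-box bound by myogenic factors), to the CArG box of serum response factor and to the MEF2 site. The myosin windows lie at chr11:67061666-67061915, plus strand for Myh2, chr11:67090678-67090927, plus strand for Myh1, chr11:67131173-67131422, plus strand for Myh4, chr11:67212234-67212483, plus strand for Myh13 and chr14:55232084-55232333, minus strand for Myh7, and the Acta1 window at chr8:124621687-124621936, minus strand.
Myh2: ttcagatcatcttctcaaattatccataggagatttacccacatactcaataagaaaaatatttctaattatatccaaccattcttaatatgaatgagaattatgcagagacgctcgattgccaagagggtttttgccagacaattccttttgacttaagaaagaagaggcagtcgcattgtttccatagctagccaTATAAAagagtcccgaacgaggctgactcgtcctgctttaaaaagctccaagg
Myh1: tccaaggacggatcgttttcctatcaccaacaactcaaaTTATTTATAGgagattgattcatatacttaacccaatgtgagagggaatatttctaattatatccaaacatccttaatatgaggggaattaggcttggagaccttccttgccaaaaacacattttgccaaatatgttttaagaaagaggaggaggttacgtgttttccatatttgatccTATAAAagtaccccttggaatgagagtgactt
Myh4: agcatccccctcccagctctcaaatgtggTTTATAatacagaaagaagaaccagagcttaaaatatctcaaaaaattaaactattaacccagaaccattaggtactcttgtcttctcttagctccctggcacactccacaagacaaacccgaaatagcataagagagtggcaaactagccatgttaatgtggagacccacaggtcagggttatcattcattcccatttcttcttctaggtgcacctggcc
Myh13: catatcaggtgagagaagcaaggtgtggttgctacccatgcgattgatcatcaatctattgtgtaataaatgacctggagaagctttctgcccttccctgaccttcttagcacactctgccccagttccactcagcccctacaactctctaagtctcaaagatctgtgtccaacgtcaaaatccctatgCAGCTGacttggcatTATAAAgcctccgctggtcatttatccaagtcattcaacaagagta
Myh7: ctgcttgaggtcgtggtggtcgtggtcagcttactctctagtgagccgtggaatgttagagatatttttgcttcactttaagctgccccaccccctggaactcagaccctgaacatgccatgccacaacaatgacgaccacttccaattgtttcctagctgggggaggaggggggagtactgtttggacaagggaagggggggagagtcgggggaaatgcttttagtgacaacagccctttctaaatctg
Acta1: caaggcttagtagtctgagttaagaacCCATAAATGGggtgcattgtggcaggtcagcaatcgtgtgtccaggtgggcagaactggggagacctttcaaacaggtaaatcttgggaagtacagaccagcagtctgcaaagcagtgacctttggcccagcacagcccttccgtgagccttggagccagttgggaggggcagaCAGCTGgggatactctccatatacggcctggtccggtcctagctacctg
Myh2 and Myh1 hold TATAAA at -53 and -32 from the start, and Myh1 also a MEF2 match at -211 that overlaps a TATAAA on the opposite strand. Myh13 holds CAGCTG at -61 and TATAAA at -46, the Myh4 window has only a TATAAA on the opposite strand at -221, and the Myh7 window has none of the 4. The Acta1 window has a CArG match at -223 and CAGCTG at -49. Over the promoters of all 42 genes, CAGCTG was present in 10 (23.8%), TATAAA in 7 (16.7%), the CArG box in 3 (7.14%) and the MEF2 site in 5 (11.9%), against 11.8%, 11.9%, 1.39% and 2.80% of 21586 promoters of protein-coding genes. The general E-box CANNTG, which includes CAGCTG, was in 32 of 42 and in 64.7% of all promoters. A match describes letters in the window and no bound factor.

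Laser against no laser in Ceacam1-/- choroids gave lower values of nearly all 42 genes, with 4 past the test: Myom1, Ryr1, Myoz2 and Tnnt1. The test was limma on log2(value + 1) with adjustment over all 19950 genes with a mean of at least 10, so log2 fold changes are on that scale. Of the 42 genes, 4 fell and 0 rose, against 1.65% of all genes lower and 2.07% higher. The log2 fold change was negative in 41 of 42 and ranged from -4.41 (Myh7) to 0.32 (Myom2), with a median of -2.09, against a median of 0.02 over all genes tested. Unadjusted p-values were under 0.05 for 40 of the 42, all lower, and for 3997 of all genes. Groups overlapped for all 42 genes, while 0.962% of all genes lay lower without overlap. With library 23 left out, the laser libraries lay below the other 3 libraries for 40 of the 42 genes, all but Myh13 and Myom2, and for 7.09% of all genes. That library was left out after its low muscle values had been seen, so a smaller overlap follows from the choice. Without library 23, 40 of the 42 were called lower (of 2488 genes called in all), and without library 24, 25, 28, 5 or 14 none was. None was called either when only the 11 Ceacam1-/- libraries were fitted (38 genes called in all) or without the filter on the mean (437 in all). The reported fit used 1 variance per gene for all groups. In Ceacam1-/- libraries without laser the log2 standard deviation was 1.668 for Myom1, 1.453 for Ryr1, 2.288 for Myoz2 and 2.378 for Tnnt1. In wild type libraries without laser it was 0.557, 0.489, 0.831 and 0.962. The SE printed for these genes can thus be too small for Ceacam1-/- mice. Without library 23 the log2 fold changes of the 4 genes were -2.93 for Myom1, -2.75 for Ryr1, -3.81 for Myoz2 and -3.97 for Tnnt1, and without library 14 they were -1.85, -1.77, -2.33 and -2.71 with adjusted p-values of 0.0506 to 0.0668 by limma.

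Laser against no laser in wild type choroids gave log2 fold changes nearer to 0 than in Ceacam1-/- mice for 39 of the 42 genes, all but Myh13, Myl3 and Myom2, and the interaction given below was not past the test. None of the 42 genes passed the test, against 1.05% of all genes lower and 4.23% higher. By limma 12 of the 42 had an unadjusted p under 0.05, of which 11 were lower and Myom2 was higher, beside 3993 of all 19950 genes. The log2 fold change was negative in 41 of 42, from -3.95 (Myl3) to 1.30 (Myom2), with a median of -0.97, against -0.10 over all genes. For 4 genes, Ldb3, Atp2a1, Ckm and Mb, every laser library lay below every library without laser, a pattern seen in 1.75% of all genes. The number of calls depended on the fit, since 31 of the 42 passed with array weights, 10 when only the 13 wild type libraries were fitted, and 13 when libraries 23, 14, 15 and 18 were left out. Over all genes the calls rose too, from 1053 to 6505, 2274 and 2753 under the same settings.

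**Figure D2:**
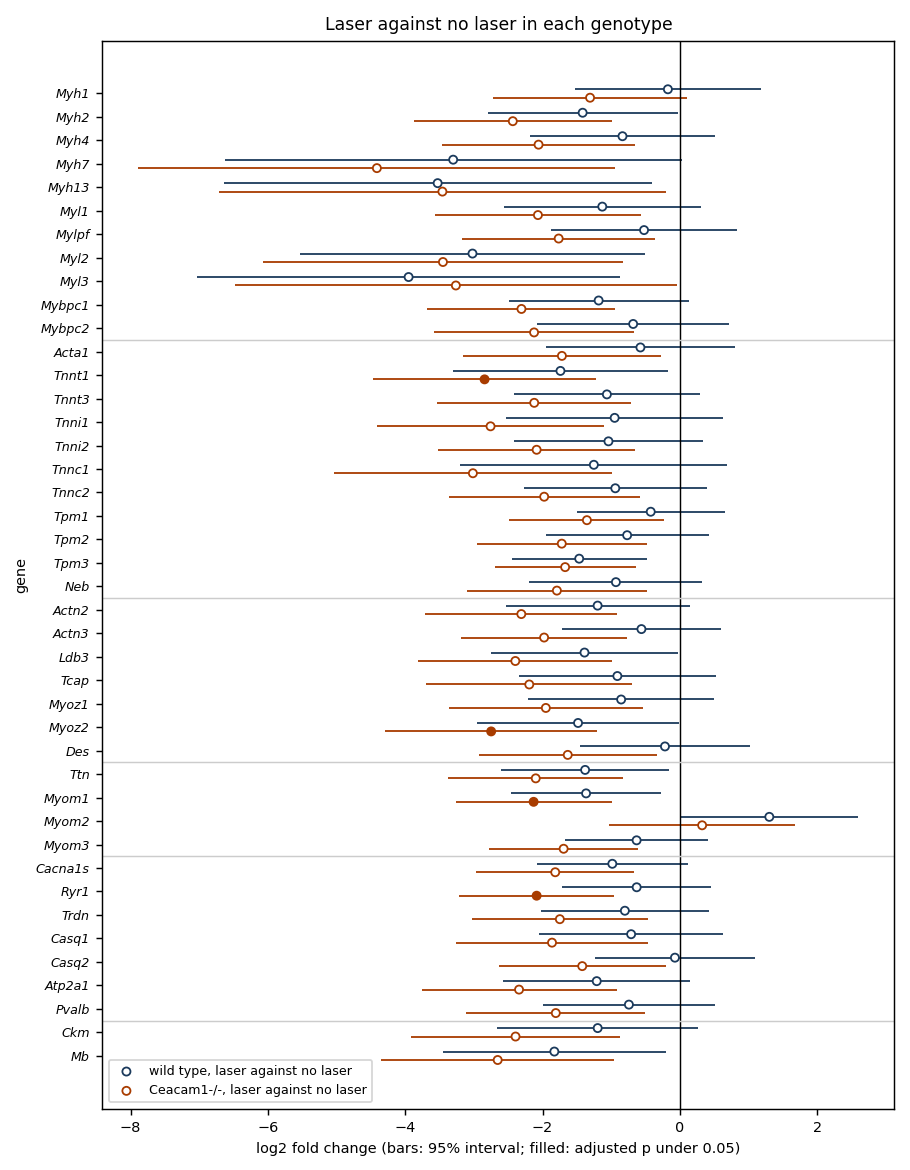
Log2 fold change of each of the 42 genes, laser against no laser, in wild type (blue) and Ceacam1-/- (brown) choroids, with 95% intervals from limma; filled points have an adjusted p under 0.05. All points but Myom2 lie below 0 in both genotypes, and the 4 filled points are Tnnt1, Myoz2, Myom1 and Ryr1 in Ceacam1-/- mice.

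The difference of the laser effect between genotypes was not past the test for any gene (0% of 19950 genes called, 1241 with an unadjusted p under 0.05 by limma, none of them among the 42). Over the 42 genes this interaction was negative in 40, with a median of -1.08. The lowest p belonged to Ryr1, with an interaction of -1.46 (SE 0.755, adjusted p = 0.64) and a 95% interval of -3.02 to 0.10. For Acta1 it was -1.14 with an interval of -3.14 to 0.85, and for Myh13 0.07 with an interval of -4.43 to 4.57. Intervals of this width do not separate an equal response from one several fold larger.

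Between genotypes without laser, no gene passed the test (0% of 20057 genes, 307 with an unadjusted p under 0.05 by limma, none of them among the 42). The study's own comparison of the genotypes, by DESeq2 with sex as a covariate, did report some differentially expressed genes. The fit used here was another method without sex, so the lack of calls does not show that no gene differs. The log2 differences of the 42 genes, Ceacam1-/- minus wild type, had a median of -0.32 and ranged from -0.97 (Myh13) to 0.04 (Ryr1). The sign depended on library 23 in most of the 17 members that were refitted without it. Of these 17, the difference was positive for 1 (Ryr1) with all libraries and for 17 without library 23, for example Acta1 from -0.19 to 0.70 and Tnnt1 from -0.12 to 1.00. Among laser libraries, Ceacam1-/- values were lower for 41 of 42 genes with a median of -1.35, and none of the 42 passed, against 0.0202% of 19757 genes. An unadjusted p under 0.05 by limma was found for 36 of the 42, all lower, and for 4479 of all genes. In the same comparison photoreceptor genes were positive for 5 of 5 (median 1.91) and pigment epithelium genes negative for 6 of 6 (median -1.47). Melanocyte genes were negative for 5 of 5 (median -1.07) and smooth muscle genes for 8 of 8 (median -0.73). No gene of these lists passed, and the part of tissue content in the muscle difference was not tested. Closest were Casq2, the calsequestrin of slow and cardiac muscle, at -1.95 (SE 0.376, adjusted p = 0.0822) and Myom3, an M-band protein, at -1.53 (SE 0.321, adjusted p = 0.0822). Leaving out wild type library 19 gave 2 calls among the 42 and 61 over all genes, and leaving out library 17 gave 1 and 25, against 4 over all genes with every library in.

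**Figure D3:**
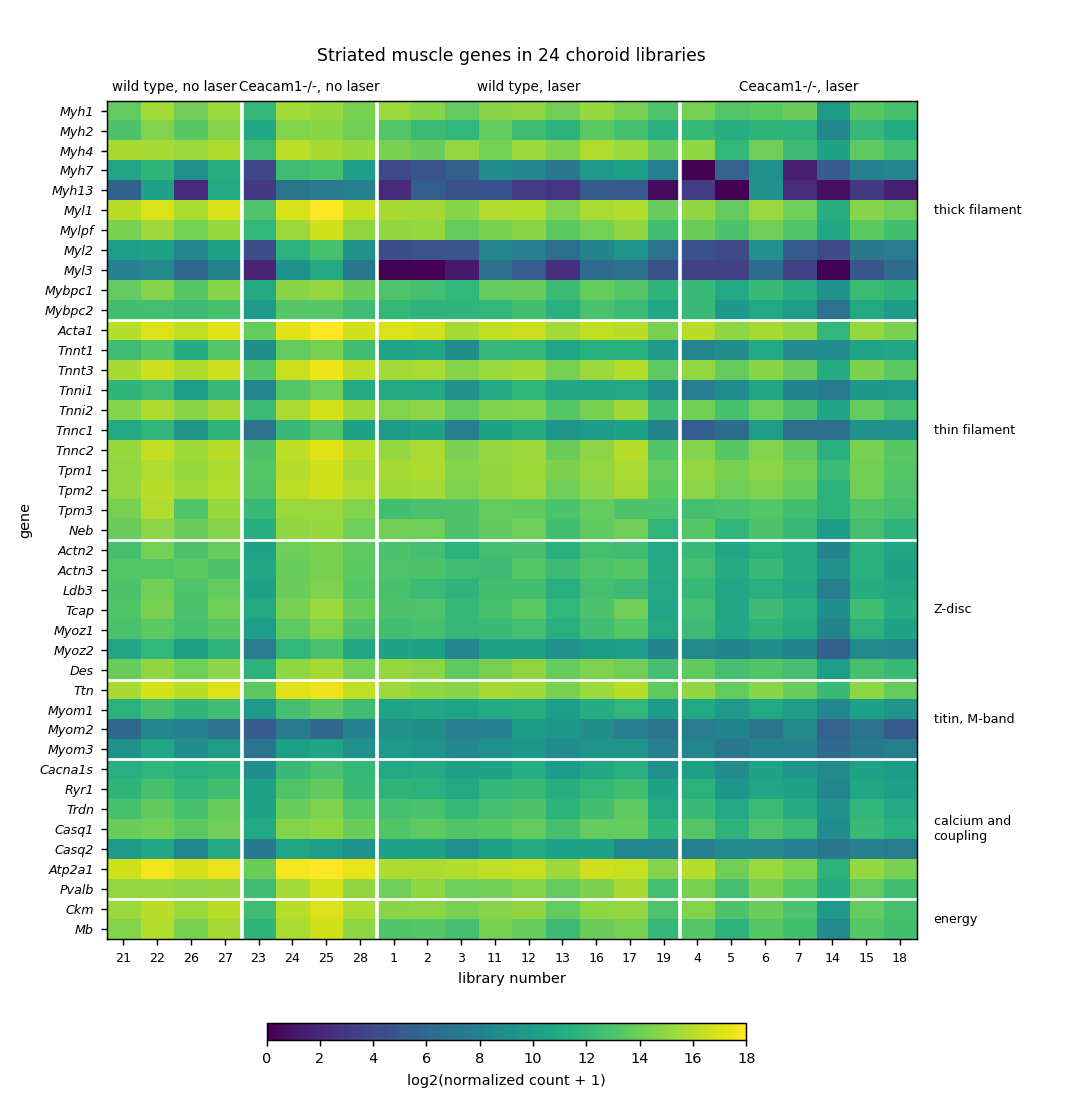
Log2(normalized count + 1) of the 42 genes (rows, grouped by role) in the 24 libraries (columns, grouped by genotype and laser, labelled by library number). Columns 23 and 14 are dark over nearly all rows, and Myh7, Myh13, Myl2, Myl3, Casq2 and Myom2 do not follow the column pattern of the other rows as closely.

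Among the myosin heavy chains, Myh4 (the fastest, IIB) and Myh1 (IIX) had the most counts per kilobase, Myh2 (IIA) fewer, and Myh7 (slow) and Myh13 (an extraocular muscle myosin) the fewest. Myh4 stood at 50372, 47751, 39282 and 55267 normalized counts in wild type and 5424, 75503, 52179 and 38301 in Ceacam1-/- libraries without laser. With laser it spanned 14629 (library 19) to 60430 (library 16) with a median of 23079 in wild type and 1328 (library 14) to 31076 (library 4) with a median of 6248 in Ceacam1-/- mice. The groups overlapped in both genotypes, with log2 fold changes of -0.84 (SE 0.649, adjusted p = 0.48) and -2.06 (SE 0.677, adjusted p = 0.0869).

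Myh1 had the smallest wild type difference of the 42 genes apart from Casq2. It stood at 13228, 46241, 17401 and 39622 in wild type and 4031, 45389, 38590 and 21502 in Ceacam1-/- libraries without laser. In the laser groups its values ran from 8500 (library 19) to 39659 (library 1) with a median of 26974, and from 913 (library 14) to 19438 (library 4) with a median of 10674, respectively. The wild type groups overlapped almost fully, with a log2 fold change of -0.18 (SE 0.656, adjusted p = 0.897), whose sign turned when library 22, 27 or 19 was left out, and in Ceacam1-/- mice it was -1.31 (SE 0.684, adjusted p = 0.29).

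By the outer bounds of the annotated genes, Myh2 ends 0.14 kb before Myh1 on chromosome 11, though the canonical Myh1 transcript starts further on. Myh2 had 8189, 24781, 10561 and 27071 counts in wild type and 1664, 25085, 28736 and 18452 in Ceacam1-/- libraries without laser. After laser, 2676 to 12815 with a median of 5514 was measured in wild type and 333 to 4250 with a median of 3072 in Ceacam1-/- libraries. In wild type, laser libraries 1, 11 and 16 lay within the range without laser, and in Ceacam1-/- mice the overlap came through library 23, and the log2 fold changes were -1.42 (SE 0.668, adjusted p = 0.236) and -2.43 (SE 0.697, adjusted p = 0.0512). Among the genes of the list, the next along the chromosome are Myh4 at 11.7 kb from Myh1 and Myh13 at 61.2 kb from Myh4, all on the plus strand. Genes outside the list were not considered, so these gaps may hold other genes.

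Slow myosin Myh7 varied widely within groups. It had 1539, 3444, 528 and 2433 counts in wild type and 13.7, 5822, 6985 and 1069 in Ceacam1-/- libraries without laser. In laser libraries it ranged from 15.1 (library 1) to 1218 (library 17) with a median of 219 in wild type, and was listed at 0 in Ceacam1-/- library 4 and reached 517 in library 6, with a median of 49.6. Its fold changes were large and imprecise, at -3.30 (SE 1.61, adjusted p = 0.253) and -4.41 (SE 1.68, adjusted p = 0.138).

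Myh13 was uneven even without laser, at 47.8, 1301, 3.39 and 2042 in wild type and 7.18, 127, 161 and 230.1 in Ceacam1-/- libraries. With laser its median was 20.8 in wild type (range 0.473 to 42.8) and 3.84 in Ceacam1-/- libraries, where library 6 alone had 548 and the other 6 had at most 8.40. Libraries 22 and 27 were thus the high ones in wild type, and library 26 was near 0. The log2 fold changes were -3.53 (SE 1.51, adjusted p = 0.186) and -3.46 (SE 1.57, adjusted p = 0.218).

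Of the light chains and binding proteins, Myl1 and Mylpf, the essential and regulatory light chains of fast fibres, were the most abundant per kilobase. Mylpf had 21555, 41625, 19741 and 35678 counts in wild type and 3945, 40504, 104609 and 32972 in Ceacam1-/- libraries without laser, with medians of 20723 and 8733 after laser. The wild type groups overlapped widely, with a log2 fold change of -0.52 (SE 0.652, adjusted p = 0.671), and the Ceacam1-/- fold change was -1.77 (SE 0.68, adjusted p = 0.144). The slow light chains Myl2 and Myl3 had wild type log2 fold changes of -3.02 and -3.95, which with those of Myh13 and Myh7 were the 4 most negative of the list. Myl3 was listed at 0 in wild type laser libraries 1 and 2 and in Ceacam1-/- library 14. The myosin binding proteins Mybpc1 (slow form) and Mybpc2 (fast form) had log2 fold changes of -1.18 and -0.68 in wild type and -2.31 and -2.12 in Ceacam1-/- mice, none past the test.

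Acta1, the skeletal alpha-actin of the thin filament, was among the 3 members with the highest count per kilobase of transcript. Without laser it had 65241, 134498, 80613 and 144333 normalized counts in wild type and 13937, 148421, 277408 and 106130 in Ceacam1-/- libraries. With laser it spanned 20781 (library 19) to 129730 (library 1) with a median of 79488 in wild type and 3804 (library 14) to 69017 (library 4) with a median of 31806 in Ceacam1-/- libraries. Wild type laser libraries 1, 2, 11, 12, 16 and 17 lay within the range without laser, and the log2 fold changes were -0.58 (SE 0.668, adjusted p = 0.646) and -1.72 (SE 0.697, adjusted p = 0.163).

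**Figure D4:**
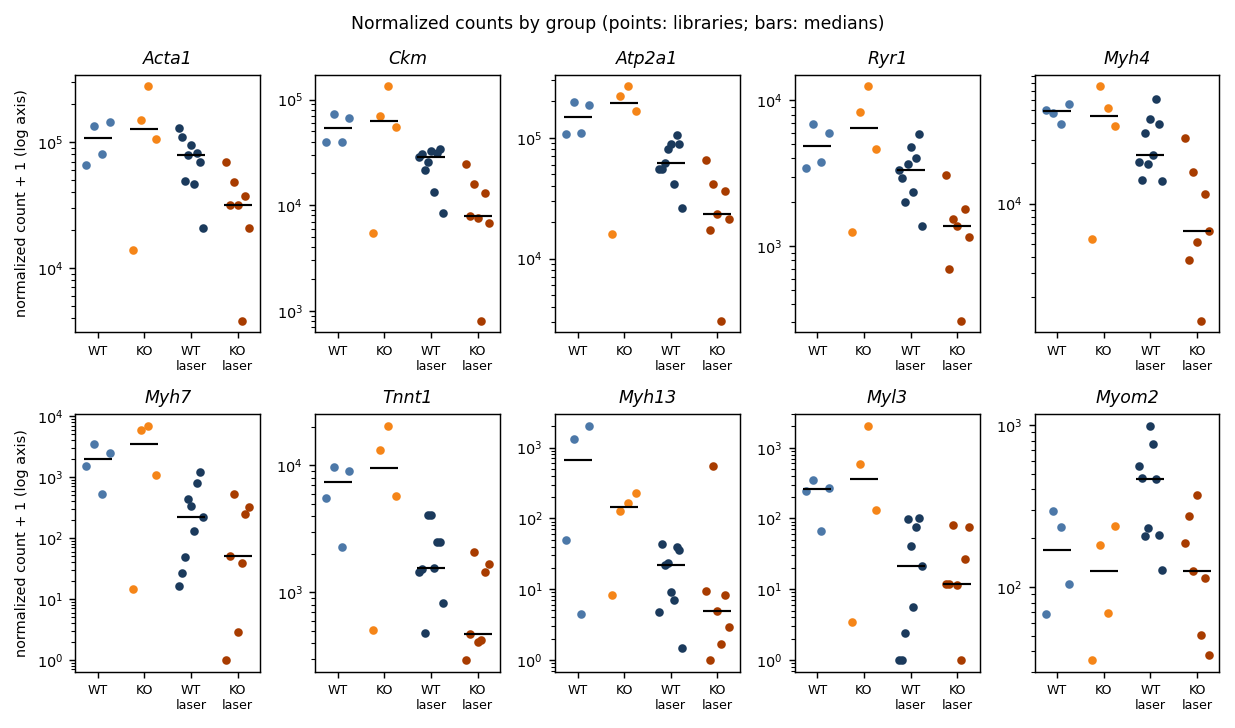
Normalized counts plus 1 (log axis) of 10 genes in each library, by genotype (WT, wild type; KO, Ceacam1-/-) and laser; bars mark group medians. Atp2a1 and Ckm separate the wild type groups completely, Myom2 lies higher in most wild type laser libraries, and the low point of the KO group without laser is library 23 in each panel.

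Tnnt1 is the slow skeletal troponin T that anchors the complex on tropomyosin. It was called lower in Ceacam1-/- mice by the fit of all libraries, but not with the Ceacam1-/- libraries alone. It had 509, 13133, 20566 and 5764 counts in Ceacam1-/- libraries without laser and 293 (library 4) to 2077 (library 6) with a median of 470.5 with laser. The other 3 unlasered libraries lay above all 7 laser libraries, and library 23 lay in the middle of them, for a log2 fold change of -2.85 (SE 0.787, adjusted p = 0.0439). In wild type the values were 5569, 9686, 2285 and 9102 without laser and 475 to 4090 with a median of 1552 with laser, a log2 fold change of -1.74 (SE 0.754, adjusted p = 0.193). Its fast counterpart Tnnt3 stood at 50161, 102255, 57651 and 102255 in wild type and 9728, 97804, 192107 and 76696 in Ceacam1-/- libraries without laser. After laser Tnnt3 had medians of 40313 and 15163, with log2 fold changes of -1.06 (SE 0.656, adjusted p = 0.37) and -2.12 (SE 0.684, adjusted p = 0.0804). Tnni2 lies on chromosome 7, 50.5 kb from Tnnt3, and had log2 fold changes of -1.04 and -2.09.

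Tropomyosin Tpm1 showed the smallest differences of the thin filament members. It stood at 34143, 57978, 38971 and 56234 in wild type and 9159, 63964, 104919 and 49622 in Ceacam1-/- libraries without laser. With laser it had 13150 to 56019 with a median of 34831 in wild type and 4852 to 33905 with a median of 18552 in Ceacam1-/- libraries, overlapping in both, with log2 fold changes of -0.43 (SE 0.522, adjusted p = 0.666) and -1.35 (SE 0.545, adjusted p = 0.161). Tpm1 is also made by smooth muscle and many other cells. Tpm3, the slow form with a wide non-muscle expression, had the lowest p of the 42 genes in wild type, with a log2 fold change of -1.47 (SE 0.476, adjusted p = 0.0741). The remaining thin filament members (Tnni1, Tnnc1, Tnnc2, Tpm2 and the filament ruler Neb) ranged from -1.25 to -0.77 in wild type and from -3.02 to -1.72 in Ceacam1-/- mice, none past the test.

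The Z-disc joins thin filaments of neighbouring sarcomeres. Its member Myoz2 (a calcineurin-binding protein of slow fibres) was called lower in Ceacam1-/- mice by the fit of all libraries. It was not called with the Ceacam1-/- libraries alone. It had 193, 3853, 7389 and 1700 counts without laser and 44.3 (library 14) to 477 (library 6) with a median of 324 with laser. Libraries 24, 25 and 28 lay above all laser libraries, library 23 below all of them but library 14, and the log2 fold change was -2.75 (SE 0.745, adjusted p = 0.0402). In wild type the values were 1624, 3952, 1185 and 3362 without and 261 to 1357 with a median of 1101 with laser (-1.48 on the log2 scale). Des, the intermediate filament of all muscle types, had 14366, 32631, 17048 and 29776 in wild type and 3090, 31176, 47917 and 19277 in Ceacam1-/- libraries without laser. With laser it had 6759 to 36689 with a median of 20463 in wild type, so the groups overlapped throughout, with a log2 fold change of -0.22 (SE 0.6, adjusted p = 0.856). In Ceacam1-/- laser libraries it had 1108 to 12529 with a median of 6768, a log2 fold change of -1.63 (SE 0.625, adjusted p = 0.141). The actinins Actn2 and Actn3, Ldb3, the titin cap Tcap and Myoz1 had log2 fold changes of -1.39 to -0.56 in wild type and -2.40 to -1.95 in Ceacam1-/- mice.

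Titin (Ttn) spans the sarcomere as a spring from Z-disc to M-band, where the myomesins bundle myosin. Ttn stood at 52352, 119397, 68666 and 134538 in wild type and 11374, 148189, 181277 and 81329 in Ceacam1-/- libraries without laser, and at 11822 to 68690 with a median of 39828 and 4640 to 32263 with a median of 14378 after laser. A single wild type laser library, 17, lay within the range without laser, and the log2 fold changes were -1.38 (SE 0.592, adjusted p = 0.188) and -2.10 (SE 0.617, adjusted p = 0.0571). Myom1 was called lower in Ceacam1-/- mice by the fit of all libraries, but not with the Ceacam1-/- libraries alone. It had 808, 6531, 11582 and 5529 counts without laser and 305 (library 14) to 1956 (library 4) with a median of 1016 with laser. The log2 fold change was -2.13 (SE 0.549, adjusted p = 0.0317). Again only library 23 overlapped the laser libraries. In wild type Myom1 had 3049, 6850, 3573 and 5831 without and 998 to 3868 with a median of 1751 with laser, a log2 fold change of -1.37 (SE 0.526, adjusted p = 0.139).

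Myom2, the M-band myomesin of fast fibres, was the only member with a positive log2 fold change in both genotypes. In wild type it had 66.9, 292, 235 and 103 counts without laser and 126 (library 19) to 992 (library 12) with a median of 466 with laser. Laser libraries 1, 2, 12, 13 and 16 lay above all 4 libraries without laser, and the log2 fold change was 1.30 (SE 0.627, adjusted p = 0.248). In Ceacam1-/- mice the values were 34.4, 179.9, 67.9 and 237 and 37.2 to 369 with a median of 124, a log2 fold change of 0.32 (SE 0.654, adjusted p = 0.816). Relative to the mean log2 level of all 42 genes in the same library, Myom2 stood at -6.07 and -6.31 without laser and at -3.63 and -3.83 with laser in wild type and Ceacam1-/- mice. Against that mean, its relative level was thus higher after laser in both genotypes. That difference was not tested.

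Ryr1, the calcium release channel of the sarcoplasmic reticulum, was called lower in Ceacam1-/- mice by the fit of all libraries. It was not called with the Ceacam1-/- libraries alone. It had 1242, 8315, 12508 and 4647 counts without laser and 308 (library 14) to 3083 (library 4) with a median of 1378 with laser, a log2 fold change of -2.09 (SE 0.545, adjusted p = 0.0342). Libraries 24, 25 and 28 lay above all 7 laser libraries. In wild type it had 3443, 6873, 3767 and 5966 without and 1372 to 5883 with a median of 3342 with laser, with a log2 fold change of -0.63 (SE 0.523, adjusted p = 0.511). Its partners, the voltage sensor Cacna1s and the junctional protein Trdn, had log2 fold changes of -0.98 and -0.80 in wild type and -1.82 and -1.75 in Ceacam1-/- mice, none past the test.

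Atp2a1, the fast-fibre calcium pump SERCA, was 1 of the 4 genes without overlap between the wild type groups. It had 106801, 198647, 109322 and 185428 in wild type without laser and 26023 (library 19) to 105891 (library 16) with a median of 62117 with laser. All 9 laser values lay below all 4 others, with a log2 fold change of -1.21 (SE 0.658, adjusted p = 0.308). In Ceacam1-/- mice it had 16049, 221977, 266396 and 166333 without and 3066 (library 14) to 65803 (library 4) with a median of 23362 with laser, overlapping through library 23 only, with a log2 fold change of -2.34 (SE 0.686, adjusted p = 0.0559). Casq1, which stores calcium in fast fibres, had 15684, 18029, 11226 and 17679 in wild type and 2078, 25983, 31663 and 15965 in Ceacam1-/- libraries without laser. With laser Casq1 had 3514 to 13880 with a median of 10130 and 433 to 9497 with a median of 4666, with log2 fold changes of -0.71 (SE 0.647, adjusted p = 0.549) and -1.86 (SE 0.675, adjusted p = 0.118). Pvalb, a calcium buffer that speeds relaxation and that some retinal neurons also make, was tightly grouped in wild type without laser, at 34203, 34307, 29953 and 33692. It had 5824, 46231, 112190 and 33633 in Ceacam1-/- libraries without laser and 6703 to 51110 with a median of 18511 and 2260 to 21365 with a median of 10096 after laser. Both pairs of groups overlapped, with log2 fold changes of -0.74 (SE 0.604, adjusted p = 0.502) and -1.81 (SE 0.63, adjusted p = 0.103).

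Ckm, the creatine kinase that buffers ATP at the myofibril, and Mb, the oxygen-binding myoglobin, completed the list. Ckm stood at 39962, 73305, 39641 and 67359 in wild type without laser and 8455 (library 19) to 33953 (library 17) with a median of 28378 with laser, again without overlap and with a log2 fold change of -1.20 (SE 0.708, adjusted p = 0.351). In Ceacam1-/- mice it had 5509, 69423, 133492 and 54677 and 806 (library 14) to 24678 (library 4) with a median of 7934, with a log2 fold change of -2.39 (SE 0.738, adjusted p = 0.0689). Mb had log2 fold changes of -1.83 (SE 0.786, adjusted p = 0.19) and -2.65 (SE 0.82, adjusted p = 0.0692).

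Slow genes had the more negative median fold changes. Over the 14 fast members the median log2 fold change with laser was -0.85 for wild type and -2.02 for Ceacam1-/- mice, and no fast member was called. Over the 10 slow members it was -1.48 and -2.80, with 0 and 2 called (Tnnt1 and Myoz2). The difference between the lists was not tested. Per kilobase of transcript, Myh7 made up 0.816% to 3.02% of the 5 heavy chains in wild type without laser (median 2.10%) and 0.0244% to 1.89% with laser (median 0.437%). In Ceacam1-/- libraries it was 0.132% to 5.91% (median 2.75%) without and 0% to 2.29% (median 0.980%) with laser, so the ranges overlapped in both genotypes. Slow troponin I, Tnni1, had medians of 5.76% of Tnni1 plus Tnni2 in wild type without laser and 5.48% with laser, and 6.20% and 3.86% in Ceacam1-/- mice. Tnnt1 took medians of 12.8%, 9.03%, 12.6% and 9.40% of Tnnt1 plus Tnnt3 in the same order, and Tnnc1 took 4.30%, 3.18%, 3.96% and 2.91% of Tnnc1 plus Tnnc2. For calsequestrin the order was another, with Casq2 at medians of 2.90% of Casq1 plus Casq2 in wild type without laser and 4.25% with laser, and 1.91% and 1.94% in Ceacam1-/- mice. Within the heavy chains Myh2 had a median share of 17.2% and 18.9% without laser and 9.81% and 13.5% with laser in wild type and Ceacam1-/- mice. None of these shares was tested.

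**Figure D5:**
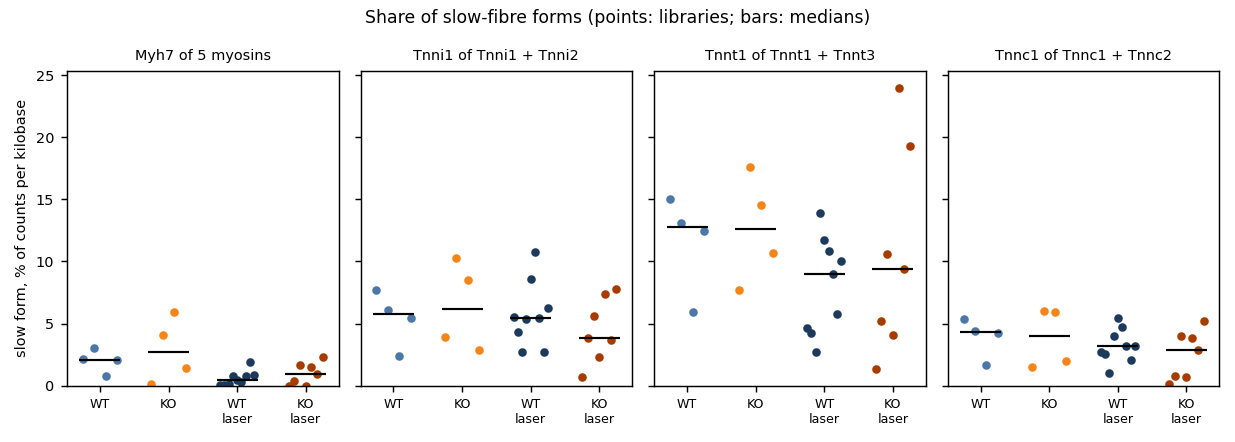
Share of the slow-fibre form in 4 protein families (% of normalized counts per kilobase of canonical transcript), by library and group (WT, wild type; KO, Ceacam1-/-), with bars at the medians. The fast forms of these 4 families prevail in every library, the Myh7 share is at most 3.02% in all but 2 Ceacam1-/- libraries without laser, and library 14 has the highest Tnnt1 share at 23.9%.

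Ordered by median count per kilobase over all 24 libraries, Tnnc2, Acta1, Myl1, Tnni2 and Mylpf led at 42635, 42116, 41870, 30151 and 25804, and Myl3, Myh7, Myom2 and Myh13 came last at 55.5, 53.6, 37.8 and 2.41. The first 3 differ by far less than the spread between libraries, and the fast members filled 5 of the first 6 places. Lengths are those of 1 canonical transcript per gene, so isoform use can shift these levels.

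Across libraries, most members varied together. With each group centred on its mean, 28 of the 42 had a Pearson correlation of at least 0.9 with the mean of the other 41, and 94 of the 19908 other genes had one with the mean of the 42. Myl1 came first at 0.99, and Myom2 (0.39), Myh7 (0.50), Myh13 (0.64) and Casq2 (0.68) were lowest. Outside the lists, the 8 protein-coding genes most like the mean were Sh3bgr, Fitm1, Hjv, Apobec2, Art1, Rpl3l, Yipf7 and Smtnl1, with correlations of 0.98 to 0.96 over 24 libraries. The points share tissue make-up and the low values of libraries 14 and 23, so these are descriptions.

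A further 68 genes of the sarcomere, the triad and muscle energy use, listed from general knowledge of the pathway, had mostly negative log2 fold changes too. In wild type mice 1 of the 68 fell with laser and 0 rose, with 60 negative and a median of -0.88, beside 1.05% of all genes lower and 4.23% higher. That gene was Myh6, a cardiac myosin that shares 32.2% of the 31-mers of Myh7, at -3.50 (SE 1.02, adjusted p = 0.0461), followed by Pfkm (glycolysis) at -1.36 and Fbxo32 (an atrophy-linked ubiquitin ligase) at -0.90, which did not pass. In Ceacam1-/- mice 16 of 68 fell and 0 rose, with 67 negative and a median of -1.77, beside 1.65% of all genes lower and 2.07% higher. The lowest p belonged to Fbxo32 at -1.56 (SE 0.297, adjusted p = 0.00517), Pln, an inhibitor of the slow calcium pump, at -3.02 (SE 0.702, adjusted p = 0.0181), and the protease Capn3 at -2.01 (SE 0.473, adjusted p = 0.0195). Of 6 myogenic genes 4 had positive and 2 negative log2 fold changes in wild type (median 0.04), and of 8 neuromuscular junction genes 4 had positive and 4 negative ones (median -0.04). For Ceacam1-/- mice the counts were 2 positive and 4 negative among the myogenic genes (median -1.29) and 2 and 6 among the junction genes (median -0.86). The lists held 3 genes that rose after laser in wild type, where 4.23% of all genes did, with Myog at 2.59 (adjusted p = 0.0282), the fusion factor Mymk at 3.23 (adjusted p = 0.00781) and the fetal acetylcholine receptor subunit Chrng at 5.62 (adjusted p = 0.000704) past the test. Chrng had a log2 fold change of 2.54 (adjusted p = 0.147) in Ceacam1-/- mice, and the interaction for Chrng, Myog and Mymk did not pass (adjusted p = 0.64 for each by limma). In Ceacam1-/- mice Dok7 of the neuromuscular junction fell by 1.86 on the log2 scale (adjusted p = 0.00271). Its wild type log2 fold change was -0.91 (adjusted p = 0.0952), and its interaction did not pass (adjusted p = 0.64 by limma).

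Some members share sequence with other genes, so their counts depend on how reads were divided. Of the distinct 31-mers of the canonical transcript, 68.8% were found in another gene for Tpm3 (nearly all in Tpm3-rs7), 40.9% for Myh7 (mainly Myh6), 36.2%, 34.8% and 30.7% for Myh2, Myh1 and Myh4 (mainly each other), 30.4% for Mb (Gm49540), 27% for Mylpf (Septin1) and 26% for Myl1 (Mylf-ps). Myh13 shared 13.7% and Cacna1s 13.1%. Of the 4 genes called lower in Ceacam1-/- mice, Myom1 and Tnnt1 shared none, Ryr1 2.52% and Myoz2 2.86%. The library kit's strand use is not given in the sources used here, so reads of overlapping antisense genes cannot be told apart.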

How the data were processed

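The authors quantified reads of 24 mouse choroid libraries with Salmon 1.10.3 against GRCm39 transcripts, imported them into DESeq2 1.44.0 and deposited normalized counts (a signal, not whole reads) for 56065 genes. The authors removed 1 outlier before their evaluation, which is not named. Their final groups held 4 wild type and 4 Ceacam1-/- samples, the same numbers as the libraries without laser here. All 24 columns were mapped to samples by library name. Members and lists were chosen with earlier results of these data known. From the photoreceptor list, 1 gene is not reported here and was left out of the sums.

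Values were tested as log2(value + 1) with limma 3.58.1 (trend) in R 4.3.3, for genes with a mean of at least 10, with Benjamini-Hochberg adjustment over all genes tested and a threshold of 0.05. Laser effects and their interaction came from 1 fit of 24 libraries in 4 groups, and genotype effects from the 8 libraries without and the 16 with laser. A tested-gene panel of 17 members was named in each comparison, with every called member, the 3 pathway genes of lowest p and the 8 genes most alike. Simulated data with known changes were used to test the fits. Symbols, lengths and promoters came from GENCODE annotation of GRCm39, which matched 99.1% of identifiers. The study's own sex covariate could not be used, as sex is not in the labels, but a covariate from Y-linked genes was fitted as an alternative. With that covariate, 0 members were called with laser in wild type (793 genes in all) and 4 in Ceacam1-/- mice (635 in all). Between genotypes with laser it gave 0 members and 3 genes in all. Raw depth is unknown, so no counting interval is given. Alternatives were other pseudocounts, filters, scalings, weights and left-out libraries. Further ones were a fit without the trend, robust variances, the Y-linked covariate, and fewer or more libraries in the fit.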

Additional observations from a re-analysis of the deposited data

Results flagged for a closer look

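Within groups of 4 to 9 libraries, 22 of 172 sets of values had 1 library far from the rest on the log2 scale by Dixon's criterion, which chance alone gives in about 1 of 20 independent sets. The sets are not independent, since most of the 42 genes vary together. Ceacam1-/- laser library 14 was the low value in 15 of them: Myh1 at 913, Myh2 at 333, Myl1 at 2419, Mybpc1 at 555, Acta1 at 3804, Tnnt3 at 2145, Tnni2 at 1491, Tnnc2 at 2457, Actn2 at 263, Ldb3 at 191, Myoz2 at 44.3, Casq1 at 433, Ckm at 806 and Mb at 349 normalized counts, and the share of the 42 genes at 0.195% of the library. The same library had a photoreceptor sum of 451140 normalized counts, and the part of tissue content in its values was not tested.

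Ceacam1-/- library 23 without laser was low for Myh2 (1664) and Atp2a1 (16049), wild type library 26 without laser for Myl2 (312) and Pvalb (29953), and wild type laser library 19 for Actn3 (2111) and Casq1 (3514). The 1 high value was Myh13 in Ceacam1-/- laser library 6, at 548 normalized counts.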

How the results depend on the processing

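Depth is unknown and groups of 4 limit every comparison without laser. Of the 42 genes, those called with laser in wild type numbered 0, but 1 with quantile normalization, 31 with array weights, 10 when only the compared libraries were fitted, 13 without libraries 23, 14, 15 and 18 (chosen after seeing the data), and 0 to 2 when 1 library was left out (2 without library 26). Over all genes the calls numbered 1053 in the reported fit and 1055, 6505, 2274, 2753 and 479 to 1162 under these settings. In Ceacam1-/- mice 4 were called, but 7 with a pseudocount of 10, 0 without a filter, 9 with a mean of at least 50, 39 with array weights, 0 when only the compared libraries were fitted, 38 without those 4 libraries, and 0 to 40 when 1 library was left out (40 without 23, 13 without 4, 2 without 7, and 0 without 24, 25, 28, 5 or 14). Over all genes the calls numbered 742 in the reported fit and 777, 437, 758, 3551, 38, 2782 and 148 to 2488 under these settings. Between genotypes with laser, 5 were called with array weights and 0 to 2 when 1 library was left out, while over all genes 4 were called in the reported fit, 297 with array weights and 4 to 61 with 1 library left out. The interaction and the comparison without laser gave 0 called under all alternatives run.

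Directions turned as follows. The Myh13 interaction became -0.14 with a pseudocount of 0.5, -0.0294 with quantile normalization and -0.22 without those 4 libraries, and ranged from -1.17 to 1.78 with 1 library left out. Myh1 with laser in wild type ranged from -0.49 to 0.11. Between genotypes without laser, Ryr1 became -0.0547 with quantile normalization, and array weights gave Myh7 0.33, Mylpf 0.15, Tnnt1 0.24, Atp2a1 0.0367, Casq1 0.24, Pvalb 0.30 and Tpm1 0.0944. With 1 library left out that comparison ranged from -0.74 to 0.70 for Acta1, -0.78 to 0.57 for Atp2a1, -0.69 to 0.62 for Casq1, -0.94 to 0.59 for Ckm, -0.85 to 0.47 for Des, -0.77 to 0.40 for Myh1, -2.68 to 0.28 for Myh13, -0.76 to 0.61 for Myh2, -1.11 to 0.16 for Myh4, -1.84 to 1.12 for Myh7, -0.70 to 0.88 for Mylpf, -0.66 to 0.76 for Pvalb, -0.40 to 0.71 for Ryr1, -0.78 to 1.00 for Tnnt1, -0.83 to 0.61 for Tnnt3, -0.57 to 0.60 for Tpm1 and -0.76 to 0.57 for Ttn. No paired analysis was run because the labels do not say which libraries share an animal or a litter.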
